A study of Mus musculus with 20 samples.

Results

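The genes described here build and process the lipids of the epidermal permeability barrier. They are Elovl4, Cers3, Pnpla1, Ugcg, Abca12, Alox12b, Aloxe3 and Smpd1, 8 of 22180 genes measured in whole abdominal skin of mice. They were chosen by name for their roles in ceramide and acylceramide synthesis, lipid transport and lipid oxidation, with earlier results of these data known. Each gene is represented by the array feature that carries its symbol alone and has the highest mean over all 20 arrays. All mice were C57/B6, 9 weeks old and kept in a specific pathogen free facility, and every abdomen was shaved. The cream was 62.5 mg of 5% imiquimod (IMQ, sold as Aldara), an activator of Toll-like receptor 7, or vehicle cream, given daily for 5 days, and the skin was collected 24 h after the last dose. Group HFD-IMQ was fed a high fat diet (HFD) and received IMQ, HFD-vehicle was fed HFD and received vehicle, CD-IMQ was fed control diet (CD) and received IMQ, and CD-vehicle was fed CD and received vehicle. Each group held 5 mice with 1 array per mouse. The sources used here do not give the composition or duration of the high fat diet. Values are log2 expression values from robust multi-array averaging (RMA), so a difference of 1 is a doubling, and levels of different genes are not compared because each probe set has its own scale.

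Keratinocytes of the upper epidermis make the barrier lipids, pack them into lamellar granules and release them at the border of the stratum corneum, where they form stacked sheets between the dead cells. Its most specialised lipids are acylceramides. ELOVL4 extends fatty acids to ultra-long chains and a cytochrome P450 hydroxylates their far end. CERS3 joins these acids to a sphingoid base, and PNPLA1 esterifies the hydroxylated end with linoleate. UGCG then adds glucose, ABCA12 loads the product into lamellar granules, and the lipoxygenases ALOX12B and ALOXE3 oxidise the linoleate so that the ceramide can be bound to the cornified envelope. SMPD1, the acid sphingomyelinase, supplies further ceramides by cleaving sphingomyelin. In humans, loss of ALOX12B, ALOXE3, ABCA12, CERS3 or PNPLA1 causes recessive ichthyosis.

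The arrays carried the markers of epidermis on every mouse. Krt10, the suprabasal keratin gene, averaged 11.77, 11.52, 11.73 and 11.13 in HFD-IMQ, HFD-vehicle, CD-IMQ and CD-vehicle, and the basal keratin gene Krt14 averaged 10.18, 9.23, 10.16 and 8.21 in the same order. Dermis and fat were present as well, with Col1a1 at group means from 9.92 to 10.93 and Adipoq from 5.88 to 6.35. In whole skin, fewer cells of a type and less RNA per cell cannot be told apart. Array medians lay between 2.863 and 3.042, and the lowest member value, 2.82 for Pnpla1 on CD-vehicle 3, lay below them. In each group 1 array had the largest share of the group's squared distance from the group mean over all genes. These were CD-vehicle 3 with 28.4%, HFD-vehicle 3 with 42.8%, HFD-IMQ 4 with 30.0% and CD-IMQ 4 with 24.9%. CD-vehicle 3 was the lowest of its group for 7 of the 8 genes and the highest for Ugcg. HFD-vehicle 3 was the lowest of its group for Aloxe3 and Alox12b and the highest for Cers3 and Pnpla1.

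After IMQ, Alox12b, Abca12 and Cers3 rose in both diets, between 1.86-fold and 3-fold. Pnpla1 and Smpd1 rose in CD-fed mice, and Ugcg rose in HFD-fed mice. Elovl4 fell 1.74-fold in HFD-fed mice and Aloxe3 did not pass in either diet. The tests are limma fits of the 4 group means with Benjamini-Hochberg adjustment over all genes, and a gene is said to rise or fall where the adjusted p is below 0.05. In HFD-fed mice 4 of the 8 genes rose and 1 fell, where 3.65% of all genes rose and 2.24% fell. In CD-fed mice 5 of the 8 rose and 0 fell, where 3.91% of all genes rose and 7.02% fell. The median log2 change of the 8 genes was 0.64 in HFD-fed mice, against -0.001 over all genes, and 0.94 in CD-fed mice, against 0.016. The 5 IMQ values lay wholly above the 5 vehicle values for 4 of the 8 genes in HFD-fed mice and wholly below them for 1, where 3.67% of all genes were separated upward and 2.39% downward. In CD-fed mice 6 of the 8 were separated upward and 0 downward, where 3.78% and 5.1% of all genes were.

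**Figure D1:**
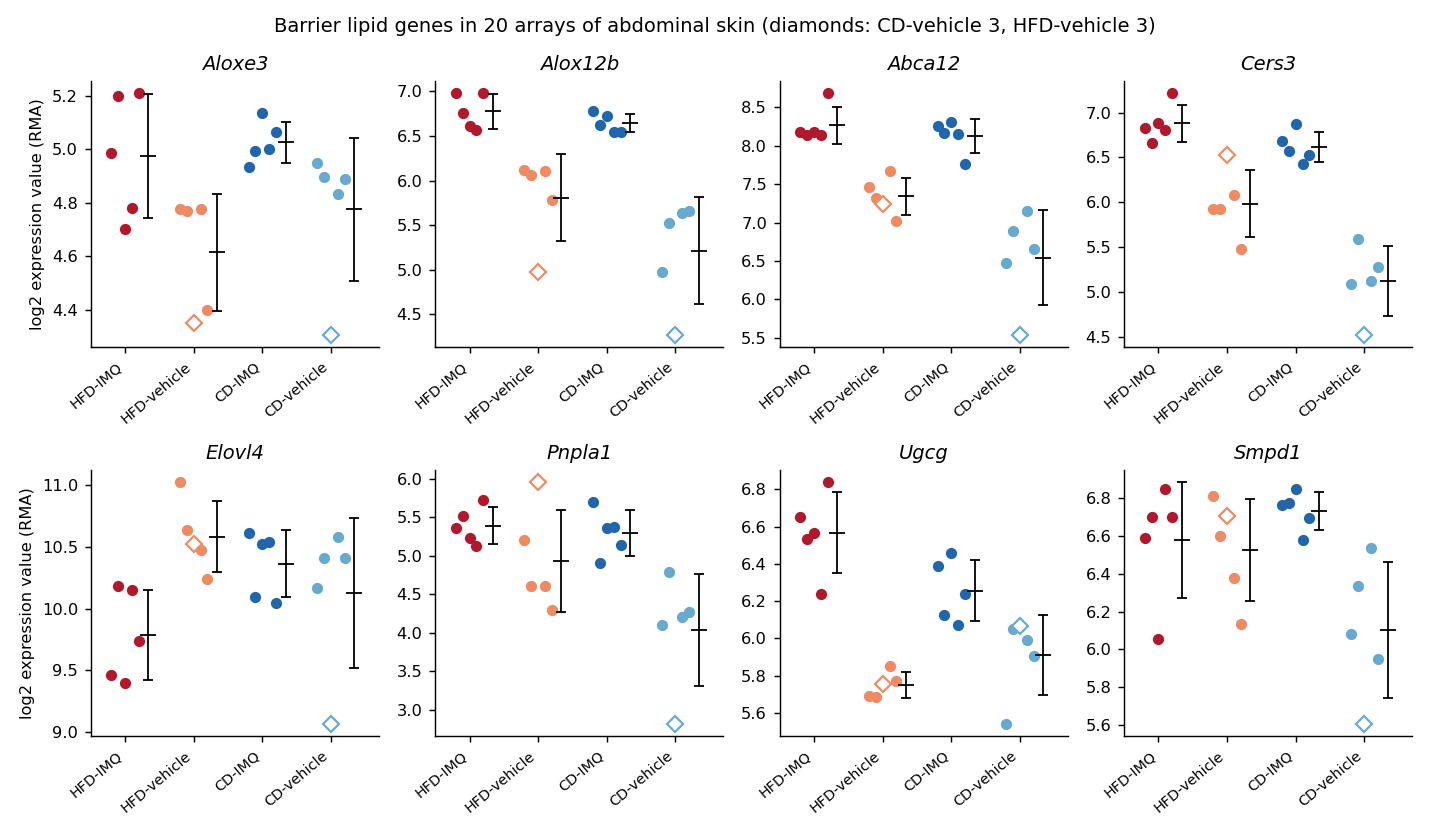
Log2 expression values (RMA, vertical axis, scale set per gene) of the 8 barrier lipid genes on 20 arrays, with groups on the horizontal axis. Points are single mice, open diamonds are HFD-vehicle 3 and CD-vehicle 3, and the bars beside them give the mean ± SD of 5 mice. Alox12b, Abca12 and Cers3 are higher in both IMQ groups than in their vehicle groups, Elovl4 has its lowest group mean in HFD-IMQ, and Ugcg in HFD-vehicle lies in a narrow band around 5.75.

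Elovl4 encodes the elongase that makes the ultra-long fatty acids of acylceramides. Its values were 9.46, 10.18, 9.40, 10.15 and 9.74 in HFD-IMQ, and 11.03, 10.64, 10.52, 10.48 and 10.24 in HFD-vehicle. In CD-fed mice they were 10.61, 10.09, 10.53, 10.54 and 10.04 in CD-IMQ, and 10.17, 10.41, 9.06, 10.58 and 10.41 in CD-vehicle. All HFD-IMQ values lay below all HFD-vehicle values, while the groups of CD-fed mice overlapped and CD-vehicle 3 lay more than 1 log2 unit under the next array of its group. By limma Elovl4 fell by 0.80 ± 0.23 (SE) on the log2 scale in HFD-fed mice (adjusted p = 0.0409), and its change in CD-fed mice was 0.24 ± 0.23 (95% interval -0.24 to 0.71, adjusted p = 0.588), or -0.03 without CD-vehicle 3 (adjusted p = 0.954). The fall in HFD-fed mice lost its call in 8 of 29 alternative settings, with adjusted p between 0.00452 and 0.117 over all of them. It was lost after centring of the arrays (0.0696) and without HFD-IMQ 1 (0.117), HFD-IMQ 3 (0.115), HFD-IMQ 5 (0.0834), HFD-vehicle 1 (0.113), HFD-vehicle 2 (0.0853), HFD-vehicle 3 (0.0603) or HFD-vehicle 4 (0.0601). Sebaceous gland markers were lower alongside it in HFD-IMQ: 5 of 11 measured genes fell and 0 rose, and the list averaged 5.20 to 6.49 over the HFD-IMQ arrays against 6.28 to 7.06 over the HFD-vehicle arrays. Their part in the Elovl4 result was not tested. From highest to lowest the Elovl4 group means were 10.58 ± 0.29 in HFD-vehicle, 10.36 ± 0.27 in CD-IMQ, 10.13 ± 0.61 in CD-vehicle and 9.78 ± 0.37 in HFD-IMQ (SD, n = 5 each), and each pair of neighbours in that order differed by less than the larger of their SDs.

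Cers3 encodes the ceramide synthase that accepts ultra-long acyl chains. It measured 6.83, 6.66, 6.89, 6.80 and 7.22 in HFD-IMQ, and 5.92, 5.93, 6.52, 6.08 and 5.48 in HFD-vehicle. The values were 6.68, 6.57, 6.87, 6.43 and 6.52 in CD-IMQ, and 5.08, 5.59, 4.52, 5.12 and 5.28 in CD-vehicle. IMQ and vehicle arrays did not overlap in either diet, and most HFD-vehicle arrays lay between the highest CD-vehicle array and the lowest CD-IMQ array. Cers3 rose by 0.90 ± 0.18 in HFD-fed mice (limma adjusted p = 0.00229) and by 1.50 ± 0.18 in CD-fed mice (adjusted p = 5.43e-06), 1.86-fold and 2.82-fold. Both rises passed in all 29 alternative settings, with log2 changes from 0.77 to 1.03 in HFD-fed mice and from 1.35 to 1.61 in CD-fed mice. Group means ran from 6.88 ± 0.21 in HFD-IMQ and 6.61 ± 0.17 in CD-IMQ to 5.99 ± 0.38 in HFD-vehicle and 5.12 ± 0.39 in CD-vehicle.

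Pnpla1 encodes the transacylase that adds linoleate to omega-hydroxyceramide. It measured 5.36, 5.52, 5.23, 5.13 and 5.72 in HFD-IMQ, and 5.20, 4.60, 5.96, 4.61 and 4.29 in HFD-vehicle. The values were 5.70, 4.91, 5.36, 5.37 and 5.14 in CD-IMQ, and 4.10, 4.79, 2.82, 4.20 and 4.27 in CD-vehicle. The groups of CD-fed mice were apart and those of HFD-fed mice overlapped, with HFD-vehicle 3 the highest of all 20 arrays. Pnpla1 rose by 1.26 ± 0.29 in CD-fed mice (limma adjusted p = 0.0062), 2.4-fold, and by 0.96 without CD-vehicle 3 (adjusted p = 0.0171). In HFD-fed mice its change was 0.46 ± 0.29 (95% interval -0.15 to 1.06, adjusted p = 0.485). Without HFD-vehicle 3 that change was 0.72 (adjusted p = 0.15), and without both vehicle 3 arrays it was 0.72 and passed (adjusted p = 0.0207), the only one of 29 settings in which it did. A second Pnpla1 feature measured between 2.085 and 2.882 on all 20 arrays, near the array medians, and averaging both features reduced the CD change to 0.61 (adjusted p = 0.025).

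Ugcg encodes glucosylceramide synthase and is expressed in many cell types besides keratinocytes. It measured 6.65, 6.54, 6.56, 6.24 and 6.84 in HFD-IMQ, and 5.69, 5.68, 5.75, 5.85 and 5.77 in HFD-vehicle. In CD-fed mice the values were 6.39, 6.13, 6.46, 6.07 and 6.24 in CD-IMQ, and 5.54, 6.05, 6.07, 5.99 and 5.91 in CD-vehicle. The HFD groups were clearly separated, while the CD groups touched, with the lowest CD-IMQ array just above the highest CD-vehicle array. Ugcg rose by 0.82 ± 0.12 in HFD-fed mice (limma adjusted p = 9.45e-05), 1.76-fold, and this passed in all 29 settings (highest adjusted p = 0.00115). In CD-fed mice the change was 0.35 ± 0.12 (95% interval 0.10 to 0.59, adjusted p = 0.0643). That value passed in 4 of 29 settings, which were quantile normalization (0.45, adjusted p = 0.0188), the filter on dim genes (0.0475), array weights (0.0303) and leaving out HFD-IMQ 4 (0.0459), and its adjusted p reached 0.187. Ugcg and Aloxe3 had larger point estimates after IMQ in HFD-fed than in CD-fed mice, and the other 6 genes had smaller ones.

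Abca12 encodes the transporter that fills lamellar granules with glucosylceramides. The values were 8.19, 8.14, 8.19, 8.14 and 8.69 in HFD-IMQ, and 7.47, 7.32, 7.24, 7.67 and 7.02 in HFD-vehicle. They were 8.26, 8.17, 8.31, 8.15 and 7.76 in CD-IMQ, and 6.48, 6.89, 5.53, 7.15 and 6.66 in CD-vehicle. IMQ and vehicle arrays did not overlap in either diet, and the lowest CD-vehicle array was again number 3. Abca12 rose by 0.92 ± 0.21 in HFD-fed mice (limma adjusted p = 0.00761) and by 1.59 ± 0.21 in CD-fed mice (adjusted p = 2.34e-05), 1.9-fold and 3-fold. Without CD-vehicle 3 the CD change was 1.33 (adjusted p = 8.31e-06), and over 29 settings the adjusted p was at most 0.0302 in HFD-fed and 0.000562 in CD-fed mice. The group means were 8.27 ± 0.24 in HFD-IMQ, 8.13 ± 0.22 in CD-IMQ, 7.34 ± 0.24 in HFD-vehicle and 6.54 ± 0.62 in CD-vehicle.

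Alox12b encodes the lipoxygenase that takes the first oxidation step on acylceramide linoleate. Aloxe3, the protein-coding gene just before it on the chromosome in the RefSeq table, encodes the enzyme that converts the product further. Alox12b measured 6.98, 6.76, 6.61, 6.57 and 6.98 in HFD-IMQ, and 6.11, 6.07, 4.97, 6.10 and 5.79 in HFD-vehicle. In CD-fed mice it measured 6.78, 6.63, 6.72, 6.54 and 6.55 in CD-IMQ, and 4.98, 5.53, 4.27, 5.64 and 5.66 in CD-vehicle. All IMQ arrays lay above all vehicle arrays, whichever the diet, and array 3 was the lowest of both vehicle groups. Alox12b rose by 0.97 ± 0.23 in HFD-fed mice (limma adjusted p = 0.00945) and by 1.43 ± 0.23 in CD-fed mice (adjusted p = 0.0002), 1.96-fold and 2.69-fold. Both rises passed in all 29 settings, and they were 0.76 without HFD-vehicle 3 (adjusted p = 0.0274) and 1.19 without CD-vehicle 3 (adjusted p = 0.000337). The values of Aloxe3 spanned 4.70 to 5.21 in HFD-IMQ, 4.35 to 4.78 in HFD-vehicle, 4.93 to 5.14 in CD-IMQ and 4.31 to 4.95 in CD-vehicle. Its IMQ changes were 0.36 ± 0.13 in HFD-fed mice (95% interval 0.08 to 0.64, adjusted p = 0.136) and 0.25 ± 0.13 in CD-fed mice (-0.03 to 0.53, adjusted p = 0.267), and neither passed in any of the 29 settings. Without CD-vehicle 3 the CD value of Aloxe3 was 0.13 (adjusted p = 0.582). The intervals of Aloxe3 and Alox12b in CD-fed mice did not overlap, although the difference between the 2 genes was not tested.

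Smpd1, the acid sphingomyelinase gene, works in lysosomes and at the stratum corneum and is active in most cell types. It measured 6.59, 6.70, 6.06, 6.85 and 6.70 in HFD-IMQ, and 6.81, 6.60, 6.70, 6.38 and 6.13 in HFD-vehicle. The values were 6.76, 6.77, 6.84, 6.58 and 6.69 in CD-IMQ, and 6.08, 6.33, 5.61, 6.54 and 5.95 in CD-vehicle. The HFD groups overlapped over most of their range, and the CD groups were separated by a narrow margin. A second Smpd1 feature spanned 5.15 to 5.516 in CD-IMQ and 4.438 to 5.144 in CD-vehicle, with CD-vehicle 1 the lowest. It spanned 4.982 to 5.422 in HFD-IMQ and 4.285 to 5.414 in HFD-vehicle. That feature was not tested alone and entered only the setting that averages the features of a gene. Smpd1 rose by 0.63 ± 0.16 in CD-fed mice (limma adjusted p = 0.015), 1.54-fold, and the call was lost without CD-vehicle 3 (0.50, adjusted p = 0.053), the only one of 29 settings to end it (range 0.00166 to 0.053). The change in HFD-fed mice was 0.05 ± 0.16 (95% interval -0.29 to 0.39, adjusted p = 0.932), or 0.10 without HFD-vehicle 3 (adjusted p = 0.865).

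Diet alone was compared in vehicle-treated skin. Of the 8 genes, Cers3 and Abca12 were higher in HFD-vehicle than in CD-vehicle and 0 were lower, where 1.22% of all genes were called higher and 0.956% lower. Cers3 averaged 5.99 ± 0.38 in HFD-vehicle and 5.12 ± 0.39 in CD-vehicle (SD, n = 5 each), a 1.82-fold difference (log2 0.87 ± 0.18, limma adjusted p = 0.00937). Abca12 averaged 7.34 ± 0.24 in HFD-vehicle and 6.54 ± 0.62 in CD-vehicle, 1.74-fold higher (0.80 ± 0.21, adjusted p = 0.047). The groups of HFD-vehicle and CD-vehicle overlapped in all 8 genes, where 3.94% of all genes were separated. The Cers3 call was lost in 2 of 29 settings, with both vehicle 3 arrays left out (0.58, adjusted p = 0.0696) and with only these 2 groups in the fit (adjusted p = 0.0762). The Abca12 call was lost in 18 of 29 settings, among them without CD-vehicle 3 (0.55, adjusted p = 0.114), and its adjusted p ranged from 0.0143 to 0.15. With the replicate number as a block it was lost as well (adjusted p = 0.062). Of the others, Pnpla1 differed by 0.90 ± 0.29 (95% interval 0.29 to 1.50, adjusted p = 0.114), by 0.59 without CD-vehicle 3 (adjusted p = 0.32) and by 0.34 without both vehicle 3 arrays (adjusted p = 0.6). Alox12b differed by 0.59 ± 0.23 (adjusted p = 0.197), passing only without HFD-vehicle 3 (0.80, adjusted p = 0.049) and standing at 0.36 without CD-vehicle 3 (adjusted p = 0.482). The values of Elovl4 (0.46 ± 0.23, adjusted p = 0.37), Smpd1 (0.42 ± 0.16, 0.208), Ugcg (-0.16 ± 0.12, 0.592) and Aloxe3 (-0.16 ± 0.13, 0.649) did not pass. Without CD-vehicle 3 the Elovl4 difference was 0.19 (adjusted p = 0.747) and that of Aloxe3 -0.28 (adjusted p = 0.364). The Aloxe3 difference was -0.09 without HFD-vehicle 3 (adjusted p = 0.855), and that of Smpd1 was 0.25 without both vehicle 3 arrays (adjusted p = 0.664).

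In IMQ-treated skin none of the 8 genes differed by diet at the threshold, the groups overlapped in all 8 where 1.67% of all genes were separated, and the same limma fit called 0.0% of all genes, with 2289 of 22180 at an unadjusted p below 0.05. Elovl4 averaged 9.78 ± 0.37 in HFD-IMQ and 10.36 ± 0.27 in CD-IMQ, a difference of -0.58 ± 0.23 (95% interval -1.06 to -0.10, adjusted p = 0.394). Ugcg averaged 6.57 ± 0.22 in HFD-IMQ and 6.26 ± 0.16 in CD-IMQ, a difference of 0.31 ± 0.12 (0.06 to 0.56, adjusted p = 0.388). These were the 2 members at an unadjusted p below 0.05. For Cers3 the interval of the difference was -0.10 to 0.63, for Abca12 -0.30 to 0.57, for Alox12b -0.34 to 0.60 and for Pnpla1 -0.51 to 0.70, so differences of up to about these sizes remain within the error. For Aloxe3 it was -0.33 to 0.23 and for Smpd1 -0.49 to 0.19.

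Whether the IMQ change depended on diet was tested by the interaction, the change in HFD-fed mice minus that in CD-fed mice. None of the 8 genes passed, where 0.663% of all genes did, and 5 of the 8 had an unadjusted p below 0.05, as did 3528 of 22180 genes. The largest term was that of Elovl4, at -1.03 ± 0.33 (95% interval -1.71 to -0.36, limma adjusted p = 0.118). Ugcg had 0.47 ± 0.17 (0.12 to 0.82, adjusted p = 0.168), Abca12 -0.66 ± 0.30 (adjusted p = 0.278), Cers3 -0.60 ± 0.25 (0.239) and Smpd1 -0.57 ± 0.23 (0.228). The terms of Pnpla1 (-0.80 ± 0.41, 0.345), Alox12b (-0.46 ± 0.32) and Aloxe3 (0.11 ± 0.19) were within 2 standard errors of 0. Several terms moved by more than 1.5 times without CD-vehicle 3, to -0.41 for Abca12 (adjusted p = 0.399), -0.50 for Pnpla1 (0.516), -0.22 for Alox12b (0.745) and 0.23 for Aloxe3 (0.565). Without both vehicle 3 arrays the terms of Cers3 (-0.32, adjusted p = 0.495) and Pnpla1 (-0.24, 0.707) moved by as much, and without HFD-vehicle 3 that of Aloxe3 was 0.04 (0.939). The IMQ change is therefore not shown to differ between diets for any single gene of the 8. The comparisons within diets and within treatments share arrays with each other and with this term.

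**Figure D2:**
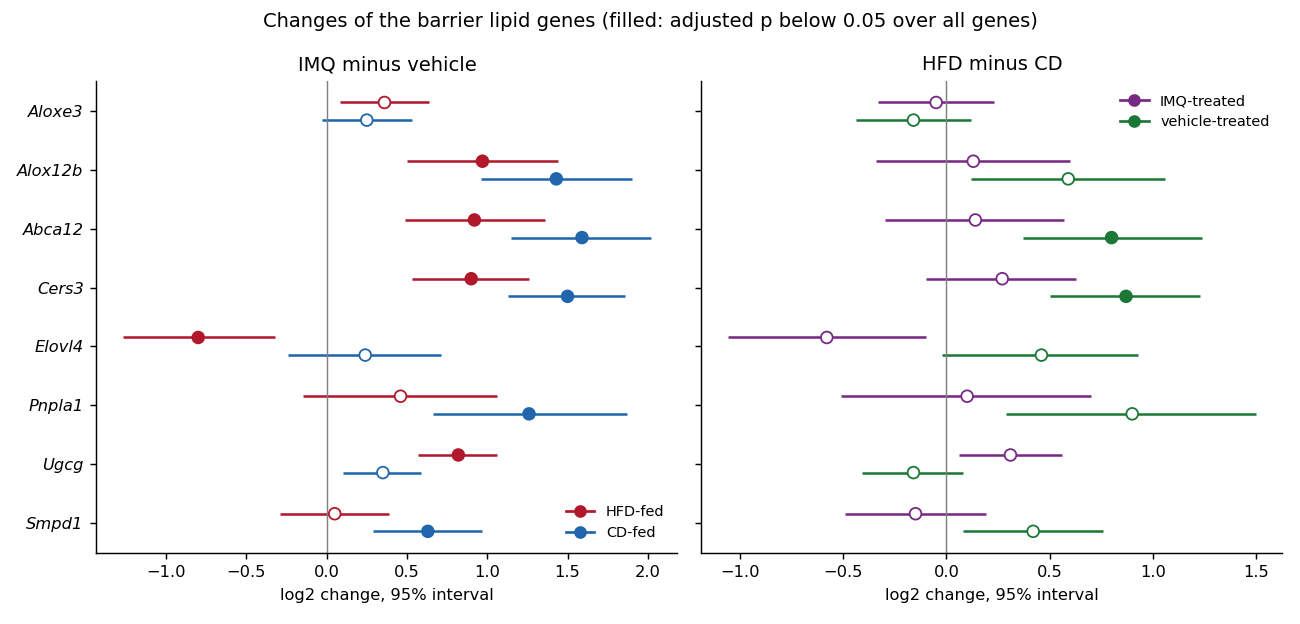
Log2 changes (horizontal axis) of the 8 barrier lipid genes with 95% intervals from the limma fit, for IMQ minus vehicle on the left and HFD minus CD on the right. Filled points have an adjusted p below 0.05 over all genes. In the left panel the points of Alox12b, Abca12 and Cers3 are filled in both diets and Elovl4 lies at -0.80 in HFD-fed and 0.24 in CD-fed mice, and in the right panel only Cers3 and Abca12 in vehicle-treated skin are filled.

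Markers of keratinocytes, skin appendages, macrophages, neutrophils and fibroblasts differed between the same groups. For comparison, 3.65% of all genes rose and 2.24% fell after IMQ in HFD-fed mice, and 3.91% and 7.02% in CD-fed mice. By diet in vehicle-treated skin 1.22% of all genes were higher and 0.956% lower. The list of 20 spinous and granular keratinocyte genes averaged 7.67 to 8.18 over the HFD-IMQ arrays, 7.48 to 8.07 over HFD-vehicle, 7.81 to 8.32 over CD-IMQ and 6.35 to 7.54 over CD-vehicle, with 2 genes of the list at or under the array medians in each group. After IMQ 4 of these genes rose and 2 fell in HFD-fed mice (median 0.46), and 16 rose and 2 fell in CD-fed mice (median 1.30). Between the diets in vehicle-treated skin 8 rose and 0 fell (median 0.68). On CD-vehicle 3 the list mean was 6.35, and the other CD-vehicle arrays were at 7.07 to 7.54, so the array that was lowest for 7 barrier lipid genes was also lowest for this list. The 8 basal keratinocyte genes averaged 6.03, 6.01, 6.01 and 5.89 in HFD-IMQ, HFD-vehicle, CD-IMQ and CD-vehicle, but single genes moved in opposite directions. After IMQ 2 of them rose and 1 fell in HFD-fed mice, and 1 rose and 2 fell in CD-fed mice. Krt14 rose by 0.95 in HFD-fed and 1.95 in CD-fed mice, and Krt15 changed by -1.67 and -1.01. Itga6 also rose in HFD-fed mice (0.52), and Dst fell in CD-fed mice (-1.06). The 4 wound keratinocyte genes, Krt6a, Krt6b, Krt16 and Krt17, averaged 9.16, 7.02, 8.85 and 4.52 in that order. After IMQ Krt17 passed in neither diet, at -0.66 in HFD-fed mice (limma adjusted p = 0.367) and 1.05 in CD-fed mice (0.0569). In vehicle-treated skin all 4 were higher in HFD-fed mice, as were 11 of 13 hair list genes. Hair shaft and inner root sheath genes averaged 2.59 to 3.84 over HFD-IMQ, 5.83 to 9.04 over HFD-vehicle, 2.72 to 3.05 over CD-IMQ and 2.79 to 4.87 over CD-vehicle, and 8 of 13 in both IMQ groups, 0 in HFD-vehicle and 6 in CD-vehicle lay at or under the array medians. HFD-vehicle 3 had the highest hair list mean of all arrays, 9.04, and CD-vehicle 3 the lowest of its group, 2.79. Of 9 macrophage and monocyte genes 7 rose after IMQ in HFD-fed mice (median 0.85) and 0 fell. In CD-fed mice 4 of these rose (median 0.27) and 0 fell. That list averaged 7.69 to 8.28 over HFD-IMQ, 6.62 to 7.24 over HFD-vehicle, 7.56 to 8.01 over CD-IMQ and 7.20 to 7.50 over CD-vehicle, and 0 of its genes lay at or under the array medians. Of 8 neutrophil genes 5 rose in HFD-fed mice (median 1.46) and 4 in CD-fed mice (median 0.79), also with 0 lower. The largest changes were those of S100a8 (4.78 in HFD-fed and 6.13 in CD-fed mice) and S100a9 (4.77 and 5.56). Csf3r and Cxcr2 also rose in both diets, Retnlg rose in HFD-fed mice only, and Ly6g, Ltf and Mmp9 passed in neither. The neutrophil list averaged 5.03 to 5.58 over HFD-IMQ, 3.30 to 3.85 over HFD-vehicle, 4.81 to 5.38 over CD-IMQ and 2.89 to 3.55 over CD-vehicle, with 2 genes at or under the array medians in each IMQ group and 3 in each vehicle group. The T cell list, of 6 genes, averaged 4.21, 4.06, 4.23 and 4.21 in HFD-IMQ, HFD-vehicle, CD-IMQ and CD-vehicle. After IMQ 1 of its genes rose and 1 fell in HFD-fed mice (median 0.22). In CD-fed mice 1 rose and 0 fell (median -0.04). Of 9 fibroblast genes 3 fell in HFD-fed mice (median -0.31) and 6 in CD-fed mice (median -0.58), with 0 higher. The fibroblast list averaged 8.71 to 9.39 over HFD-IMQ, 9.07 to 9.60 over HFD-vehicle, 8.77 to 9.05 over CD-IMQ and 9.19 to 9.57 over CD-vehicle. Ugcg and Smpd1 are expressed by many cell types. After IMQ Ugcg changed by 0.82 in HFD-fed and 0.35 in CD-fed mice, and Smpd1 by 0.05 and 0.63. Neither gene passed in the interaction. The part of leukocyte content, keratinocyte number, differentiation and hair stage in the changes of the barrier lipid genes was not tested.

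**Figure D3:**
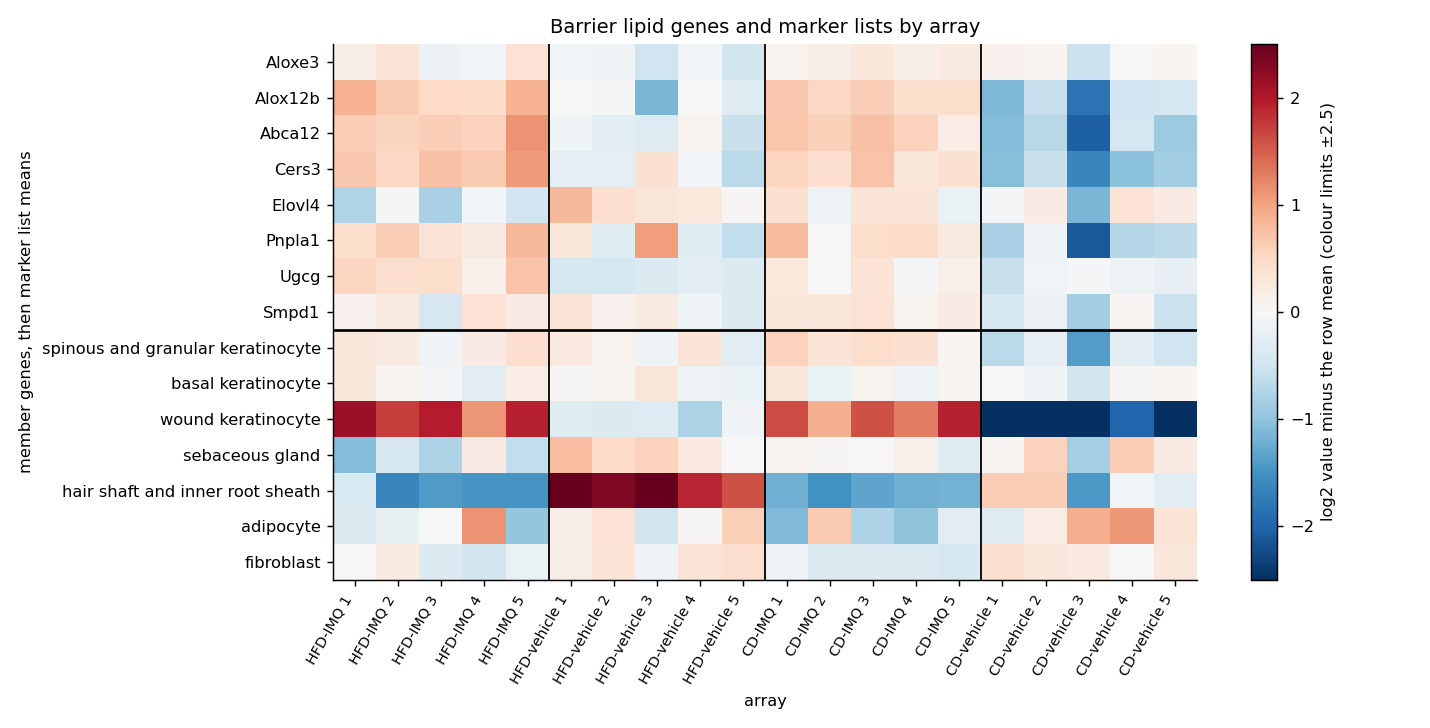
Log2 value minus the row mean (colour, limits at ±2.5) for the 8 barrier lipid genes above the line and for the means of 7 marker lists below it, with 1 column per array. CD-vehicle 3 is blue for 7 of the 8 genes and for the spinous and granular list, HFD-vehicle arrays are red for the hair list, some beyond the colour limit, and CD-vehicle arrays are dark blue for the wound keratinocyte list, most beyond the limit.

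The 8 genes did not follow 1 profile over the arrays. With each profile centred on its own mean, the closest pairs were Alox12b with Abca12 and Abca12 with Cers3, each at a root mean square difference of 0.256 over 20 arrays. Next came the flatter profiles of Aloxe3 with Smpd1 (0.302) and Aloxe3 with Ugcg (0.307), and then Cers3 with Pnpla1 (0.338). The farthest pair was Cers3 with Elovl4 at 0.88, more than the deviation of either gene from its own mean (0.73 and 0.47). The same measure was taken against all other genes. Nearest to Abca12 were Tprg (0.162), Abhd12b (0.204) and Them5 (0.207), and nearest to Alox12b were Calm4 (0.21), a calmodulin-like gene on the spinous and granular list, Blmh (0.234), which encodes bleomycin hydrolase, an enzyme that degrades filaggrin, and Tmprss4 (0.237). Nearest to Cers3 were Lypd3 (0.19), Dhrs9 (0.198) and Ckmt1 (0.221). Pnpla1 was nearest to Ankrd22 (0.237), Klk7 (0.239), a protease gene of the stratum corneum, and Lypd5 (0.247). The genes nearest to Elovl4 were others, Psapl1 (0.15), Rdh11 (0.166) and Cyp51 (0.175), the last a cholesterol synthesis enzyme. Ugcg was nearest to Skap2 (0.137), Cacna1d (0.145) and Clic1 (0.167), and Smpd1 to Gtf2f1 (0.133), Atp6v0a2 (0.15) and Dhrs1 (0.161). The profiles of Ugcg (0.353) and Smpd1 (0.339) themselves vary little, which makes small differences to other genes easier to reach.

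Promoters are shown for the 3 genes that rose in both diets and for Elovl4 and Ugcg, whose profiles lay apart from them. Each sequence is the gene's promoter window of 250 bases in RefSeq, build GRCm38.p6, on the gene's strand, with CG dinucleotides in capitals. The windows of Alox12b, Abca12 and Elovl4 end where the gene's RefSeq span begins. That of Cers3 lies inside its span, which begins at 66733118. The Ugcg window runs past the start of its span at 59189507, and that of Pnpla1, counted below, does so too. The regions are chr11:69156822-69157071 (plus strand) for Alox12b, chr1:71414911-71415160 (minus) for Abca12, chr7:66743254-66743503 (plus) for Cers3, chr9:83806306-83806555 (minus) for Elovl4 and chr4:59189300-59189549 (plus) for Ugcg.
Alox12b: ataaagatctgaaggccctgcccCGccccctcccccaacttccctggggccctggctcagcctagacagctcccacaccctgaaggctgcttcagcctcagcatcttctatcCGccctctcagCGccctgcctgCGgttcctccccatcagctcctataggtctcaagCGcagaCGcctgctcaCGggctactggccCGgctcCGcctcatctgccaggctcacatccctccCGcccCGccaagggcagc
Abca12: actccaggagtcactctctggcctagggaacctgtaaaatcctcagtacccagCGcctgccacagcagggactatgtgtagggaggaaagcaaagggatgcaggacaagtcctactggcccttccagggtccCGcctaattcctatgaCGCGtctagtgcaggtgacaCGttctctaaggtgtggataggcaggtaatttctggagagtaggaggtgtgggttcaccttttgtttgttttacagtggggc
Cers3: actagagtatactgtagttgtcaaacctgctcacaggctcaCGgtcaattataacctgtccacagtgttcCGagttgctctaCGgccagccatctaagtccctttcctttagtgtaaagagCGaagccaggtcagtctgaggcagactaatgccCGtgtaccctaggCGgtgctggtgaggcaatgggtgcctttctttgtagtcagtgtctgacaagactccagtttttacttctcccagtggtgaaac
Elovl4: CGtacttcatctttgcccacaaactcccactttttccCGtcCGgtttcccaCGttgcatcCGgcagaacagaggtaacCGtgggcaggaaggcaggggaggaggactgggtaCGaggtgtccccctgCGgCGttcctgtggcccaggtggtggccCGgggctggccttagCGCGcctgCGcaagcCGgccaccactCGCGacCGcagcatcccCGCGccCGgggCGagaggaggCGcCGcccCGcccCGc
Ugcg: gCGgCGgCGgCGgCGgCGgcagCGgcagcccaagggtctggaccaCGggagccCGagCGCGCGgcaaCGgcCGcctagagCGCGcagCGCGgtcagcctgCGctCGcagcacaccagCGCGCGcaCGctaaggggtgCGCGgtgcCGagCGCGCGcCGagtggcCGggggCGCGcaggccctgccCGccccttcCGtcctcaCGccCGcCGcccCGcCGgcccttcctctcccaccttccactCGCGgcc

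The 3 genes that rose in both diets had 11 CG dinucleotides in Alox12b, 5 in Abca12 and 6 in Cers3, and the 5 of Pnpla1 were as few. Among 32536 mouse promoters of the same length the median was 6, with quartiles at 2 and 16. Elovl4 had 25, more than 89.2% of promoters, Ugcg had 43, more than 99.3%, and Smpd1 had 16, more than 74.4%. The 7 genes with a promoter entry were searched on both strands for short motifs of factors known in keratinocytes. The AP-1 letters TGANTCA occurred in 0 of 7 and in 6.73% of all promoters, and the grainyhead-like letters AACNGGTT in 0 of 7 and in 1.79%. The KLF letters CACACCC were found once, at -177 to -171 from the Alox12b start (6.95% of all promoters). The nuclear receptor half-site AGGTCA was found at -122 to -117 in Cers3 and at -150 to -145 in Smpd1 (14% of all promoters). Positions count back from the end of each window, which for Cers3 lies inside the gene span. The C/EBP letters TTGCNNAA (9.57%) and the TATA box letters TATAAA (12.3%) occurred in 0 of 7. These matches are letters in a window of 250 bases and are no evidence for or against binding.

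The rest of the pathway was described from 7 lists with 96 measured genes. After IMQ 13 of the 96 rose and 10 fell in HFD-fed mice, where 3.65% of all genes rose and 2.24% fell. In CD-fed mice 21 rose and 7 fell, where 3.91% of all genes rose and 7.02% fell. In vehicle-treated skin 7 were higher and 1 was lower in HFD-fed mice, where 1.22% of all genes were higher and 0.956% lower. The 7 that fell in CD-fed mice and the 1 lower by diet were near the share over all genes. In IMQ-treated skin 0 differed by diet, with 16 of the 96 at an unadjusted limma p below 0.05, as were 2289 of 22180 genes. The median log2 change of the 96 after IMQ was -0.004 in HFD-fed mice, against -0.001 over all genes. It was 0.134 in CD-fed mice, against 0.016. The same shares over all genes apply to the counts of each list below.

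Among 13 genes of fatty acid elongation and activation, 0 rose and 2 fell after IMQ in HFD-fed mice and 2 rose and 2 fell in CD-fed mice. Elovl5, an elongase of polyunsaturated fatty acids, averaged 7.61 ± 0.31 in HFD-IMQ and 8.84 ± 0.23 in HFD-vehicle (log2 change -1.23 ± 0.18, limma adjusted p = 0.000104). Elovl6, which extends palmitate, fell by 1.14 ± 0.24 (adjusted p = 0.00424). Both fell in the same comparison as Elovl4. In CD-fed mice Elovl1, an elongase of saturated very long chains, rose by 0.62 ± 0.14 (adjusted p = 0.00422), and Acsl4, which activates arachidonate, fell by 0.71 ± 0.15 (adjusted p = 0.00286). The rise of Elovl3 (1.11 ± 0.34, adjusted p = 0.0403) and the fall of Elovl5 (-0.56 ± 0.18, adjusted p = 0.0457) in CD-fed mice lost their calls in 8 and 13 of 29 settings. Without CD-vehicle 3 the Elovl3 value was 0.76 (adjusted p = 0.126). Elovl3 is also on the sebaceous gland list.

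Of 14 genes of de novo ceramide synthesis, 0 rose and 3 fell after IMQ in HFD-fed mice, and 3 rose and 1 fell in CD-fed mice. The ceramide synthases Cers5 (-1.30 ± 0.28, limma adjusted p = 0.00541) and Cers4 (-1.17 ± 0.29, adjusted p = 0.0147) fell in HFD-fed mice, where their relative Cers3 rose, and the Cers4 call was lost without HFD-IMQ 1 or HFD-IMQ 3 (highest adjusted p = 0.0544). Sptssb, a small subunit of serine palmitoyltransferase, fell by 1.82 ± 0.40 in HFD-fed mice (adjusted p = 0.00566), and its HFD-IMQ mean of 1.85 was under the array medians, which leaves the size uncertain. With only the 2 groups in the fit its call was lost (0.0553). In CD-fed mice Degs2, which makes phytoceramides, rose by 1.33 ± 0.26 (adjusted p = 0.00173), Sptlc1 by 0.91 ± 0.15 (adjusted p = 0.000347) and Degs1 by 0.53 ± 0.12 (adjusted p = 0.00682). Cers6 fell by 0.43 ± 0.11 (adjusted p = 0.0143). Of 6 genes of omega-hydroxylation and acylceramide assembly 1 fell in HFD-fed mice, Pnpla5 (-1.23 ± 0.36, adjusted p = 0.0434, lost in 11 of 29 settings, among them without HFD-vehicle 3 at 0.0753), and 0 passed in CD-fed mice. Cyp4f39, the mouse omega-hydroxylase gene of this route, changed by -0.72 ± 0.32 in HFD-fed mice (adjusted p = 0.241) and by 0.68 ± 0.32 in CD-fed mice (adjusted p = 0.195).

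Of 17 genes for the turnover of glucosylceramide, sphingomyelin and ceramide, 4 rose and 0 fell in HFD-fed mice, and 3 rose and 1 fell in CD-fed mice. Smpd3, the neutral sphingomyelinase gene, rose by 0.79 ± 0.13 in HFD-fed mice (limma adjusted p = 0.000359) and by 0.56 ± 0.13 in CD-fed mice (adjusted p = 0.00668). Asah2, the neutral ceramidase gene, rose by 0.74 ± 0.15 (adjusted p = 0.00219) and 0.68 ± 0.15 (adjusted p = 0.00342) in the same order of diets. Asah1, the acid ceramidase gene, rose in HFD-fed mice (0.53 ± 0.10, adjusted p = 0.00198). So did Psap, whose product activates lysosomal sphingolipid enzymes (0.48 ± 0.12, adjusted p = 0.0182), a call lost in 4 of 29 settings, among them without HFD-IMQ 1 (0.0691) or HFD-IMQ 2 (0.0564). Macrophage and monocyte genes rose in the same comparison, 7 of 9 in HFD-fed mice, and their part in these values was not tested. In CD-fed mice Gltp, a glycolipid transfer protein gene, rose by 0.87 ± 0.14 (adjusted p = 0.000195) and the sphingomyelin synthase gene Sgms1 fell by 0.38 ± 0.09 (adjusted p = 0.00916).

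Other lipoxygenase and epoxide genes included the step after ALOXE3. Sdr9c7, a dehydrogenase that oxidises the lipoxygenase product further, rose by 1.22 ± 0.20 in HFD-fed mice (limma adjusted p = 0.000303), with means of 6.69 ± 0.19 in HFD-IMQ and 5.47 ± 0.21 in HFD-vehicle. In CD-fed mice it rose by 1.72 ± 0.20, with 6.51 ± 0.20 in CD-IMQ and 4.78 ± 0.58 in CD-vehicle. Tgm1, the transglutaminase of the cornified envelope, rose by 0.76 ± 0.18 in HFD-fed mice (adjusted p = 0.0103, lost with only these groups in the fit at 0.0623) and by 1.48 ± 0.18 in CD-fed mice. Alox12e, an epidermal lipoxygenase gene of the mouse, fell in both, by 1.05 ± 0.21 (adjusted p = 0.00219) and by 1.10 ± 0.21 (adjusted p = 0.00106), while its relative Alox12b rose. Ephx3, an epoxide hydrolase gene, rose in CD-fed mice (1.08 ± 0.21, adjusted p = 0.0014), and Alox5ap, which leukocytes use to make leukotrienes, rose by 1.09 ± 0.13 in HFD-fed and by 0.86 ± 0.13 in CD-fed mice (adjusted p = 0.000157). In all, 3 of 11 rose and 1 fell in HFD-fed mice, and 4 rose and 2 fell in CD-fed mice.

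Of 17 genes of lipid transport and lamellar granules 3 rose and 1 fell in HFD-fed mice, and 7 rose and 0 fell in CD-fed mice. Fabp5, the epidermal fatty acid binding protein gene, rose by 0.84 ± 0.19 in HFD-fed mice (limma adjusted p = 0.00663) and by 1.56 ± 0.19 in CD-fed mice. Abcg1, a sterol transporter gene, rose by 0.81 ± 0.15 (adjusted p = 0.00148) and by 0.95 ± 0.15 (adjusted p = 0.000237) in the same order of diets. In CD-fed mice Nipal4, which like several of the 8 genes is mutated in human recessive ichthyosis, rose by 0.87 ± 0.16 (adjusted p = 0.00102), and the sterol sulfotransferase gene Sult2b1 rose by 0.96 ± 0.24 (adjusted p = 0.0114). Cldn1, a tight junction gene, fell in HFD-fed mice (-1.0 ± 0.24, adjusted p = 0.0109). Rab11a rose there by 0.42 ± 0.12 (adjusted p = 0.0433, lost in 14 of 29 settings, among them without HFD-vehicle 3 at 0.095).

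Of 18 transcription factor genes linked to the barrier 3 rose and 2 fell in HFD-fed mice, and 2 rose and 1 fell in CD-fed mice. Grhl3, a grainyhead-like factor of epidermal differentiation, rose by 0.98 ± 0.19 in HFD-fed mice (limma adjusted p = 0.00161) and by 1.03 ± 0.19 in CD-fed mice (adjusted p = 0.000748). Vdr, the vitamin D receptor gene, fell in HFD-fed mice (-1.34 ± 0.24, adjusted p = 0.000941), and so did Gata3 (-0.80 ± 0.16, adjusted p = 0.00275). Hair follicle cells express both Vdr and Gata3, and the hair list fell in 11 of 13 genes in that comparison, whose part was not tested. Hif1a rose there by 0.53 ± 0.14 (adjusted p = 0.02, lost in 5 of 29 settings, among them without HFD-IMQ 1, HFD-IMQ 3, HFD-IMQ 5 or HFD-vehicle 1). In CD-fed mice Ppard, a nuclear receptor gene, rose by 0.55 ± 0.13 (adjusted p = 0.00571), and Klf4 fell by 0.47 ± 0.15 (adjusted p = 0.0389, lost in 11 of 29 settings, among them without CD-vehicle 3 at 0.103).

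In vehicle-treated skin HFD-fed mice had higher Tgm1 (1.03 ± 0.18, limma adjusted p = 0.00299), Vdr (1.30 ± 0.24, adjusted p = 0.00477) and Sptssb (1.94 ± 0.40, adjusted p = 0.00991). The CD-vehicle mean of Sptssb, 1.73, was under the array medians, and with only these 2 groups in the fit Vdr (0.0618) and Sptssb (0.0925) lost their calls. Cldn1 was higher by 0.99 ± 0.24 (adjusted p = 0.0291) and lost its call in 6 of 29 settings, among them without HFD-vehicle 1 (0.0801), HFD-vehicle 3 (0.0688) or CD-vehicle 3 (0.098). Fabp5 (0.70 ± 0.19), Nipal4 (0.62 ± 0.16) and Grhl1 (0.85 ± 0.22) were higher and Klf4 (-0.55 ± 0.15) lower at adjusted p from 0.0463 to 0.0498, and each of these 4 calls was lost in 20 to 22 of 29 settings. Hair list genes were higher by diet in the same skin, 11 of 13 with 0 lower.

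**Figure D4:**
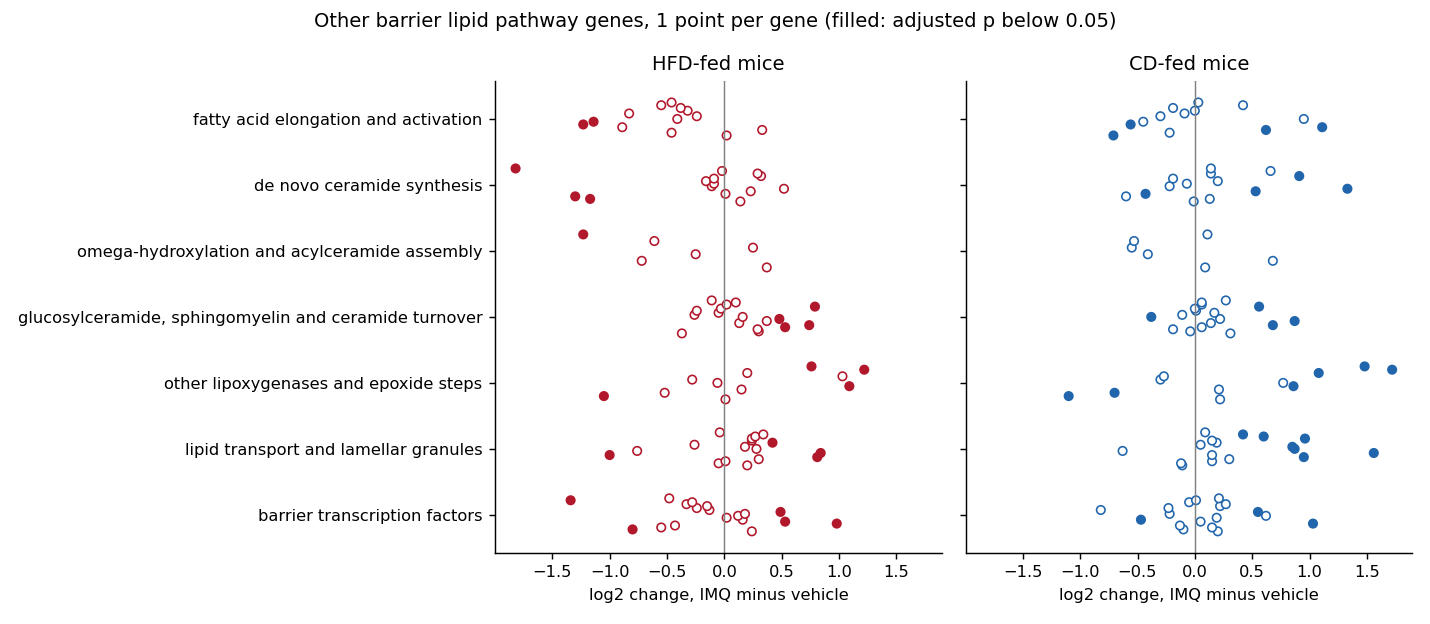
Log2 changes after IMQ (horizontal axis) of 96 further genes of the barrier lipid pathway in 7 lists, with HFD-fed mice on the left and CD-fed mice on the right. Each point is 1 gene and filled points have a limma adjusted p below 0.05 over all genes. In HFD-fed mice the filled points of the elongation and de novo ceramide lists all lie below 0, while those of the turnover list all lie above 0.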

How the data were processed

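Expression in abdominal skin of 20 mice was measured on Affymetrix arrays from 300 ng of RNA each. The deposited values are log2 values made by the authors with RMA and the affy package, per the submitters' processing notes, which give no versions. The sources used here give no scan batches, no genome build and no statement of joint normalization, and the number of arrays limits the precision. Of 41345 features 23521 had a single symbol in the platform annotation, 1814 several and 16010 none, and 23328 matched the RefSeq table, which changed 0 symbols. The tests covered 22180 genes, 1082 of them with more than 1 such feature, with no filter on dim genes. Groups came from the labels. Their 4 means were fitted with limma 3.58.1 (lmFit, eBayes) in R 4.3.3, tested on simulated data, with 5 contrasts and Benjamini-Hochberg adjustment, and summarised in Python 3.11.15. Alternatives were quantile normalization, median centring, a filter keeping genes above the array median on at least 5 arrays, the mean of a gene's features, a trended prior, array weights, only the groups compared, a replicate block, an exact permutation test and leaving out each array. Of 30 same-number pairs across groups 4 had residual correlations above 0.1 (range -0.217 to 0.320), so numbers were not used as pairs. Named pathway genes were up to 4 called genes per list and contrast with the largest changes, and Cyp4f39 and the CD value of Alox5ap were added after their values were seen. Nearest genes were the 3 with the smallest root mean square difference to a member called at least once. The members, lists and motifs were chosen with earlier results of these data known.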

Additional observations from a re-analysis of the deposited data

Results flagged for a closer look

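Of the values of the 8 genes, 5 lay far from the other 4 mice of their group, by a gap that was large for the group's range. Abca12 on HFD-IMQ 5 was 8.69, above the others at 8.14 to 8.19, and Abca12 on CD-IMQ 5 was 7.76, below the others at 8.15 to 8.31. Alox12b on HFD-vehicle 3 was 4.97, with the others at 5.79 to 6.11. On CD-vehicle 3 Aloxe3 was 4.31, with the others at 4.83 to 4.95, and Elovl4 was 9.06, with the others at 10.17 to 10.58. The 8 genes gave 32 groups of 5 arrays, 5 were singled out, and chance singles out about 1 in 20 groups. The 8 genes share the same 20 arrays, so the 32 groups are not independent and an excess cannot be judged.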

How the results depend on the processing

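The 5 genes called after IMQ in HFD-fed mice and the 5 called in CD-fed mice numbered 4 to 5 and 4 to 6 over the fits that left out 1 array each. For HFD against CD in vehicle-treated skin the 2 called genes became 1 after median centring, 0 with only the 2 groups in the fit, 0 without both vehicle 3 arrays (chosen after seeing the data) and 1 or 2 without single arrays. In IMQ-treated skin and for the interaction 0 were called without any single array. The 96 pathway genes gave 18 to 26 calls in HFD-fed and 22 to 30 in CD-fed mice without single arrays. Their 8 calls in vehicle-treated skin became 4 after centring, 5 with array weights, 1 with only the 2 groups, 3 without both vehicle 3 arrays and 3 to 10 without single arrays. By diet in IMQ-treated skin pathway calls stayed at 0, and for the interaction there were 1 after quantile normalization, 2 with the filter on dim genes, 2 with array weights and 0 to 2 without single arrays. Over all genes calls without single arrays ranged from 990 to 1370 and from 1741 to 2636 after IMQ in HFD-fed and CD-fed mice, from 231 to 574 by diet in vehicle-treated skin, from 0 to 20 in IMQ-treated skin and from 57 to 198 for the interaction. The 483 genes called by diet in vehicle-treated skin became 137 with only the 2 groups and 217 without both vehicle 3 arrays. In IMQ-treated skin the 0 became 5 after quantile normalization and 1 each with the filter, the mean of features, the trended prior and without both vehicle 3 arrays. Quantile normalization changed the split of higher and lower genes after IMQ in CD-fed mice to 1049 and 1287, against 868 and 1556. The sign turned for 4 uncalled changes when single arrays were left out. Elovl4 after IMQ in CD-fed mice ranged from -0.03 (without CD-vehicle 3, and likewise without both vehicle 3 arrays) to 0.35. Smpd1 in HFD-fed mice ranged from -0.04 (without HFD-vehicle 5; -0.01 without HFD-IMQ 4) to 0.19. By diet in IMQ-treated skin Aloxe3 ranged from -0.11 to 0.02 (without HFD-IMQ 3) and Pnpla1 from -0.0011 (without CD-IMQ 2) to 0.20. The cause of these changes was not tested beyond fewer arrays entering the fits. The replicate numbers were not used to pair the mice. With the replicate number as a block 5 and 5 members were called after IMQ in HFD-fed and CD-fed mice. By diet in vehicle-treated skin that setting called 1 member and 4 pathway genes, and in the other 2 tests it called 0 members. The fit of only the groups compared was not run for the interaction, which needs all 4 groups. The exact permutation test of single genes, two-sided and unadjusted, gave 0.00794 wherever the groups did not overlap, the smallest p that 5 against 5 mice can give.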
